A study of Homo sapiens with 10 samples.

Results

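The genes described here are 40 genes of DNA replication and S phase, the part of the cell cycle in which the genome is copied. They form a list of gene names chosen for function, and all 40 were found by symbol among the 20591 genes of the deposited table. Levels were read in 10 bulk RNA sequencing libraries of human blood cancer lines, with 1 library per group: 6 in vitro mixtures of HL60, K562, SUDHL4 and THP1, and each of those lines alone. Every library was labelled wild type (WT), untreated and taken on day 0, from cells grown in RPMI with serum. THP1 and HL60 derive from acute myeloid leukaemias, with monocytic features in THP1 and promyelocytic ones in HL60. SUDHL4 comes from a B cell lymphoma, and K562 is a chronic myeloid leukaemia line that carries erythroid traits. Each is a single long-cultured line, so it stands for itself and not for a disease. The labels give neither the ratios of the mixtures nor which of 2 library kits was used for which library. No group has a replicate, so no p-value is given, and intervals cover counting error only.

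Before a cell divides, each replication origin is licensed: the origin recognition complex (ORC), CDC6 and CDT1 load the MCM2 to MCM7 ring onto DNA, and geminin (GMNN) blocks reloading once S phase has begun. At the start of S phase, cyclin E with its kinase and the E2F transcription factors switch on, and CDC45 and the GINS complex join the MCM ring to form the active helicase. DNA polymerases then copy the strands, held on by the PCNA clamp that the RFC complex loads, while ribonucleotide reductase and thymidylate synthase supply nucleotides. Most of these genes are targets of E2F factors in dividing cells, and dividing leukaemia lines express all of the core machinery. A bulk level cannot tell more cells in S phase from more transcript per cell.

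E2F motifs were counted in the promoters, whose sequences the choice of genes did not use. RefSeq promoter sequences (build GRCh38.p14, 250 bases before to 50 after each start) were matched by symbol for 36 of the 40 genes. The E2F letters TTTGGCGC, TTTCCCGC or TTTGGCGG, on either strand, occurred in at least 1 promoter of 22 of these 36 genes. Counted by promoter, 22 of 45 held them (48.9%), against 1014 of 35116 promoters overall (2.89%) and 4.45% of 13387 promoters of genes at 5 normalised CPM or more in a pure line. The shorter CCAAT box, also on either strand and nested in no E2F motif, was in 62.2% of the 45 promoters and in 34.6% of all promoters. The 4 promoters printed here belong to genes that were highest in 4 different lines at the deposited scaling: CDC6 in K562, MCM6 in HL60, E2F1 in SUDHL4 and CDT1 in THP1. They lie at chr17:40287629-40287928 on the plus strand, chr2:135876394-135876693 on the minus strand, chr20:33686336-33686635 on the minus strand and chr16:88803539-88803838 on the plus strand. Capitals mark the E2F letters, and in CDT1 an inverted match runs directly into a forward one.
CDC6: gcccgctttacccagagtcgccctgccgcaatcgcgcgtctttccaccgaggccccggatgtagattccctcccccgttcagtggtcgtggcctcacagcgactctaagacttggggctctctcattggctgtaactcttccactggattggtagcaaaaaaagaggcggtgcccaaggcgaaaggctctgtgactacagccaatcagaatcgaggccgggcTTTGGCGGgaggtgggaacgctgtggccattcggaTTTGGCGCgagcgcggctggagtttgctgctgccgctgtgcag
MCM6: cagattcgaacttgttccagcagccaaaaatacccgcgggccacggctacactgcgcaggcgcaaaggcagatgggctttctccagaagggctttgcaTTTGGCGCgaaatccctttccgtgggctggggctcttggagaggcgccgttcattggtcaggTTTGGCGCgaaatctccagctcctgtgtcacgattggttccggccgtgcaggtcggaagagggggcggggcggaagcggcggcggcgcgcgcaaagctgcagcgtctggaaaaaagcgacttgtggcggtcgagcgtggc
E2F1: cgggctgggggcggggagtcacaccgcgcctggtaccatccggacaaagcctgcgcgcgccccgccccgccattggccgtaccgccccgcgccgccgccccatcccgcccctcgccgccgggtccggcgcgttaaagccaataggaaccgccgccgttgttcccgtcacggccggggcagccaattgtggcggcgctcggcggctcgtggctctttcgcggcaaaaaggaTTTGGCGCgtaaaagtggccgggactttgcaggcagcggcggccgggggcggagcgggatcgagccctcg
CDT1: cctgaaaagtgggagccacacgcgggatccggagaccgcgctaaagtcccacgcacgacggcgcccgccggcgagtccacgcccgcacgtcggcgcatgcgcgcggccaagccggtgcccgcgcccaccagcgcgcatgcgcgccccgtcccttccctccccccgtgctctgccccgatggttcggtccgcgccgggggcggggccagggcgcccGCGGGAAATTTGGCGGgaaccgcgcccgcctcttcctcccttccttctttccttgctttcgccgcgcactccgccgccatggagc
By the line in which a gene was highest, 8 of 11 matched genes in K562, 6 of 8 in SUDHL4, 7 of 15 in HL60 and 1 of 2 in THP1 had the E2F letters. Genes with these letters were thus found among the highest of every line. A match describes the sequence and does not show binding.

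Libraries held 24985570 to 36607612 reads, and the 4 lines were checked by identity markers: MPO was highest in HL60, RHAG in K562, MS4A1 in SUDHL4 and CSF1R in THP1. Levels are normalised CPM: reads per 1000000 after the authors' own rescaling between libraries. All 40 genes exceeded 5 normalised CPM in every pure line, from 8.40 (CCNE2 in HL60) to 875 (MCM7 in K562), and the smallest count of any of them in any library was 250 reads. Together they took up 0.602%, 0.589%, 0.609%, 0.541%, 0.557% and 0.573% of the reads of mixtures 1 to 6. In the pure lines their share was 0.681% in HL60 (95% Wilson interval 0.679 to 0.684), 0.624% in K562 (0.621 to 0.626), 0.556% in SUDHL4 (0.553 to 0.558) and 0.515% in THP1 (0.512 to 0.517). This share does not depend on any scaling between libraries, and its order from HL60 down to THP1 was beyond counting error.

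The first comparison asks in which line each gene stood out. A gene was called higher or lower in a line when its log2(normalised CPM + 1) differed by at least 1, about 2-fold, from the mean of the other 3 lines. By this rule 18 of the 40 genes were called in at least 1 line (45%), against 64.2% of all 11717 genes that reached 5 normalised CPM in a pure line. In HL60, 5 genes were higher (12.5%, against 14.3% of all genes) and 2 lower (5%, against 18.8%). K562 had 3 higher (7.5%, against 19.7%) and 3 lower (7.5%, against 19.3%). SUDHL4 had 3 higher (7.5%, against 15.6%) and 6 lower (15%, against 23.5%). THP1 had 1 higher (2.5%, against 19.3%) and 5 lower (12.5%, against 18%). No direction in any line was thus called more often among replication genes than among all genes. The highest level of a gene was a median of 2.20 times its lowest over the 4 lines, against 3.46 times over all genes. Among the 40 it ranged from 1.35 times for FEN1 to 7.52 times for CCNE2. The 11717 genes include genes below 5 normalised CPM in some lines, while all 40 reached it in every line. Beside the 7228 genes that also did, the contrast was small: the median range in log2(normalised CPM + 1) was 1.13 for the 40 and 1.23 for those. Called shares were not computed for the 7228.

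The highest line was HL60 for 16 genes (40%, against 24.8% of all genes), K562 for 11 (27.5%, against 30.2%), SUDHL4 for 9 (22.5%, against 24.3%) and THP1 for 4 (10%, against 20.7%). The HL60 count rested on the scaling: it was 7 with every library scaled to its total of reads and 9 with the lines scaled to equal housekeeping genes. K562 was then the highest line for the most genes, 15 with total-read and 13 with housekeeping scaling, and SUDHL4 for 12 with either, both ahead of HL60. Shares of all genes were not computed under these scalings, so these counts have no background beside them. All genes moved too: their median difference in HL60 was −0.08 with total-read and −0.15 with housekeeping scaling, against 0.08 as deposited. The highest line was the same under all 3 scalings for 31 genes, of which 7 were highest in HL60. THP1 was the lowest line for 16 genes (40%, against 29.8% of all genes), and for 13 of these under every scaling. SUDHL4 was lowest for 13 (32.5%, against 26%), HL60 for 6 (15%, against 21%) and K562 for 5 (12.5%, against 23.1%). The median difference of the 40 genes was 0.37 log2 units in HL60, 0.12 in K562, −0.09 in SUDHL4 and −0.27 in THP1, beside medians of 0.08, 0.07, −0.10 and −0.16 over all genes. Taken relative to the median of all genes, which takes the scaling out by construction, the HL60 median was 0.28 log2 units above. Of the 28 calls, 20 stayed at a difference of 1 or more under both other scalings, some of them with a changed size, and the remaining 8 are named as such below. A call said to hold under every scaling is one that stayed past 1. One said to be lost fell short of 1 and kept its direction.

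**Figure D1:**
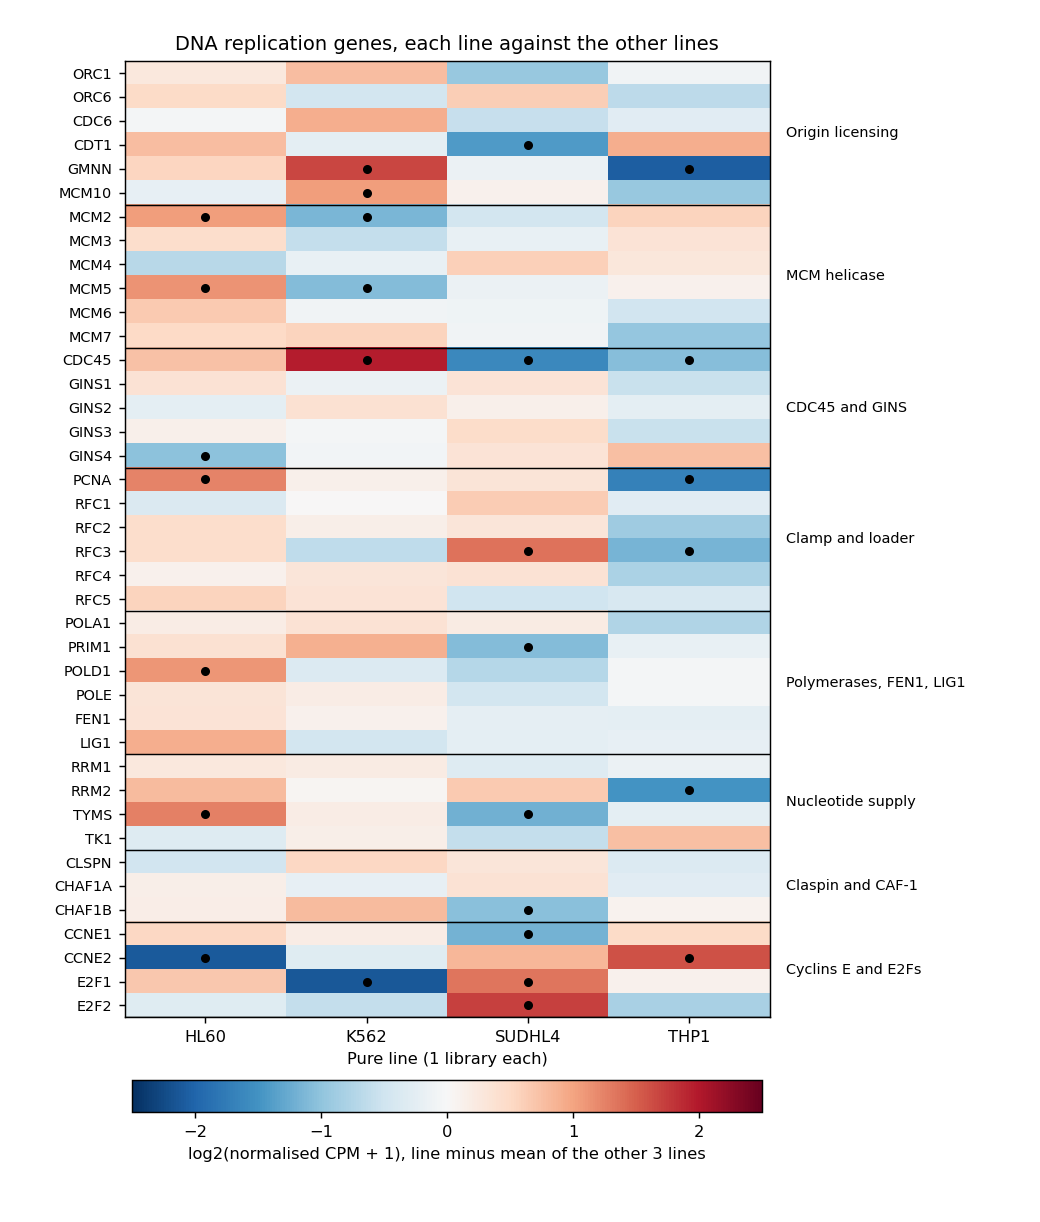
Difference in log2(normalised CPM + 1) between each pure line and the mean of the other 3 lines for the 40 genes, in groups by role; red is higher, blue is lower and black dots mark differences of 1 or more. The largest values are 1.96 for CDC45 in K562 and, on the lower side, −2.13 for E2F1 in K562, −2.11 for CCNE2 in HL60 and −2.06 for GMNN in THP1.

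In the group listed under origin licensing, K562 was the highest line for 4 of 6 genes under every scaling: ORC1, CDC6, GMNN and MCM10. Over all genes, K562 was highest for 30.2% at the deposited scaling. The largest contrast was in geminin, the inhibitor of relicensing (chromosome 6, 24774931 to 24786099 in GRCh38). GMNN stood at 158 normalised CPM in K562, against HL60 at 86.2, SUDHL4 at 60.6 and THP1 at 21.7, a difference of 1.68 log2 units in K562 and −2.06 in THP1. All 4 levels were apart beyond counting error, and both calls held under every scaling.

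The partner that geminin restrains had another order of lines. CDT1, which loads the MCM ring, was at 40.8 normalised CPM in SUDHL4, against THP1 at 138, HL60 at 128 and K562 at 75.3, a difference of −1.41 in SUDHL4 that held under every scaling. With housekeeping scaling CDT1 was also called higher in THP1. Within a library, where scaling has no part, GMNN made up 67.6% of the reads of this pair in K562 (95% Wilson interval 66.6 to 68.7), 59.8% in SUDHL4, 40.2% in HL60 and 13.5% in THP1 (12.6 to 14.5). This pair, like the other within-library shares given here, was chosen after the values were seen.

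MCM10 was at 62.9 normalised CPM in K562, against SUDHL4 at 38.4, HL60 at 32.3 and THP1 at 21.6, a call of 1.04. With housekeeping scaling this call was lost only just, at 0.9995. ORC1, the largest ORC subunit and the one that varies over the cell cycle, was at 169 normalised CPM in K562, against HL60 at 129, THP1 at 108 and SUDHL4 at 68.8. CDC6, the ATPase that works with ORC, was at 149 normalised CPM in K562, against HL60 at 90.3, THP1 at 79.8 and SUDHL4 at 68.1. ORC6, the smallest subunit, was the exception in direction, at 24.5 normalised CPM in SUDHL4, against HL60 at 22.8, K562 at 13.6 and THP1 at 12.2. Counting intervals of ORC6 overlapped between SUDHL4 and HL60 and between K562 and THP1, and no ORC1, ORC6 or CDC6 difference reached 1.

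The subunits of the MCM ring, which has 1 copy of each protein, did not vary together at the transcript level. HL60 was the highest line for 4 of the 6 (MCM2, MCM3, MCM5 and MCM6), against 24.8% of all genes. For MCM3 the highest line was THP1 under both other scalings. MCM2 was at 574 normalised CPM in HL60, against THP1 at 447, SUDHL4 at 263 and K562 at 183. MCM5 was at 496 normalised CPM in HL60, against THP1 at 293, SUDHL4 at 258 and K562 at 158. The lower calls of both genes in K562, of −1.15 for MCM2 and −1.08 for MCM5, held under every scaling. Their higher calls in HL60, of 1.04 and 1.12, were lost under both others.

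MCM4, MCM6 and MCM7 had other lowest lines, HL60 for MCM4 and THP1 for MCM6 and MCM7. MCM6 was at 262 normalised CPM in THP1, against HL60 at 468, K562 at 321 and SUDHL4 at 317, with K562 and SUDHL4 overlapping within counting error. MCM4 was at 230.3 normalised CPM in HL60, against SUDHL4 at 451, THP1 at 383 and K562 at 302, and MCM7 was at 398 normalised CPM in THP1, against K562 at 875, HL60 at 851 and SUDHL4 at 629.5. As a share of all MCM2 to MCM7 reads of a library, MCM7 made up 42.5% in K562 (42.1 to 42.9), 28.7% in SUDHL4, 28.3% in HL60 and 18.5% in THP1 (18.3 to 18.8). The share of MCM4 was 7.67% in HL60 (7.50 to 7.84), against 20.6% in SUDHL4, 17.8% in THP1 and 14.7% in K562. That of MCM2 was 20.8% in THP1, 19.1% in HL60, 12.01% in SUDHL4 and 8.88% in K562. Counting intervals of these shares overlapped only for MCM7 between SUDHL4 and HL60.

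Per kilobase of the principal transcript, MCM7 had the highest level of the 6 in every line, from 296 normalised CPM per kb in K562 and 288 in HL60 down to 213 in SUDHL4 and 135 in THP1. The gene with the lowest level per kilobase differed between lines. It was MCM4 in HL60 (55.1), MCM5 in K562 (44.6), MCM2 in SUDHL4 (72.7, with MCM5 close by at 72.97) and MCM6 in THP1 (69.999). In GENCODE release 29, exons of AP4M1 on the opposite strand cover 8.94% of the exon bases of MCM7. Those of the antisense gene AC023593.1, which has no level here, cover 22.7% of the exon bases of MCM2. The sources used here do not say whether reads were counted by strand.

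**Figure D2:**
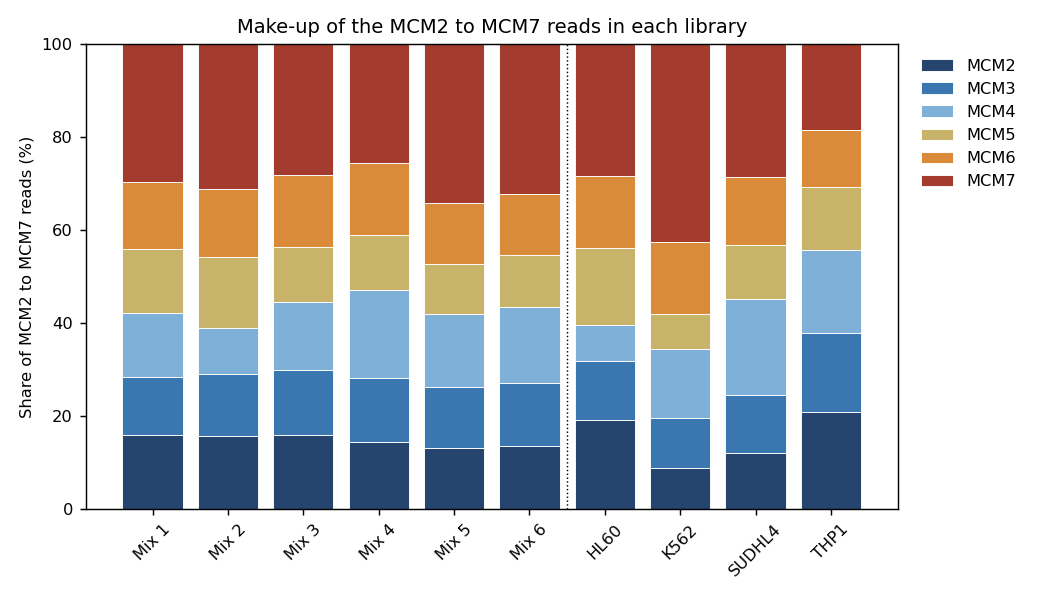
Share of each of MCM2 to MCM7 among their summed reads, in percent, in the 6 mixtures (left of the dotted line) and the 4 pure lines. MCM7 fills 42.5% of the K562 bar and 18.5% of the THP1 bar, and MCM4 fills 7.67% of the HL60 bar.

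CDC45 had the largest positive difference of all 40 genes, in K562. It encodes the protein that joins the MCM ring to make the moving helicase, and lies on chromosome 22 (19479459 to 19520612 in GRCh38). Its level was 293 normalised CPM in K562, against HL60 at 154, THP1 at 59.7 and SUDHL4 at 44.6, a difference of 1.96 log2 units. It was also called lower in SUDHL4 (−1.62) and in THP1 (−1.07), the last of these not with housekeeping scaling.

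Of the GINS complex, which completes that helicase, only GINS2 shared its highest line with CDC45: K562, at 86.2 normalised CPM, under every scaling. GINS4 was at 23.6 normalised CPM in HL60, against THP1 at 61.1, SUDHL4 at 49.5 and K562 at 39.6, a call of −1.03 in HL60 that held under every scaling. GINS1, GINS2 and GINS3 differed by less than 1 in every line, with a highest level of 1.64, 1.40 and 1.72 times the lowest. Per kilobase, GINS2 had the highest level of the 4 subunits in every line, from 32.3 in K562 to 23.04 normalised CPM per kb in HL60. The 2 highest lines for GINS1 overlapped within counting error, at 24.9 in HL60 and 24.6 in SUDHL4.

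Clamp and loader genes were lowest in THP1 for 4 of 6 under every scaling: PCNA, RFC2, RFC3 and RFC4. Over all genes, THP1 was lowest for 29.8% at the deposited scaling. PCNA, the ring-shaped clamp that holds polymerases on DNA (chromosome 20, 5114953 to 5126626 in GRCh38), was at 91.4 normalised CPM in THP1, against HL60 at 423, SUDHL4 at 260.4 and K562 at 236. The calls of −1.69 in THP1 and 1.25 in HL60 held under every scaling. PCNA has 3 annotated pseudogenes, so reads may be split between near-identical copies.

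RFC3, a small subunit of the clamp loader, was at 141 normalised CPM in SUDHL4, against HL60 at 86.9, K562 at 49.6 and THP1 at 37.2, a difference of 1.36 in SUDHL4 that held under every scaling. Its lower call in THP1 (−1.17) was lost only just with housekeeping scaling, at −0.9949. Of the other small subunits, RFC2 ranged from 62.7 in THP1 to 127 in HL60, RFC4 from 43.4 in THP1 to 79.7 in SUDHL4 and RFC5 from 58.2 in SUDHL4 to 101 in HL60. RFC1, the large subunit, was highest in SUDHL4 at 163 and between 95.8 and 118 in the other lines. Per kilobase, RFC3 was at 58.8 in SUDHL4, the second highest of the 5 loader genes there after RFC2 (69.5), and at 15.5 in THP1, the lowest there.

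Of 6 genes for polymerases and for the enzymes that finish the lagging strand, 2 were called, against 64.2% of all genes. PRIM1, the catalytic primase subunit that starts each fragment, was at 39.2 normalised CPM in SUDHL4, against K562 at 110.1, HL60 at 84.3 and THP1 at 62.9, a call of −1.07 that was lost with housekeeping scaling. POLD1, the catalytic subunit of polymerase delta, was at 161 normalised CPM in HL60, against THP1 at 87.6, K562 at 75.6 and SUDHL4 at 61.6, a call of 1.11 that was lost under both other scalings. The lagging-strand ligase LIG1 was also highest in HL60 under every scaling, at 142 against 69.6 to 79.2 elsewhere. The other 3, which did not reach a difference of 1 in any line, were POLA1, the polymerase that extends the primer (54.9 in THP1 to 98.8 in K562), POLE, the leading-strand polymerase (95.7 in SUDHL4 to 145 in HL60), and the flap nuclease FEN1 (164 in THP1 to 222 in HL60).

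In nucleotide supply, the regulated subunit of ribonucleotide reductase differed between lines while the other subunit was nearly level. RRM2 was at 141 normalised CPM in THP1, against HL60 at 467, SUDHL4 at 435 and K562 at 317, a difference of −1.50 in THP1 that held under every scaling. RRM1 ran from 281 in SUDHL4 to 382 in HL60. RRM2 thus made up 31.3% of the reads of this pair in THP1 (30.5 to 32.04), against 60.7% in SUDHL4, 55.01% in HL60 and 46.04% in K562. RRM2 has 3 annotated pseudogenes, and exons of AC007240.1 on the same strand cover 20.2% of its exon bases. The part of this overlap in the RRM2 counts was not tested.

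Thymidylate synthase, TYMS, makes the thymidine nucleotide and is the target of fluoropyrimidine drugs. It was at 688 normalised CPM in HL60, against K562 at 392, THP1 at 315 and SUDHL4 at 191, with calls of 1.26 in HL60 and −1.20 in SUDHL4 that held under every scaling. Exons of ENOSF1 on the opposite strand cover 39.1% of the TYMS exon bases, and ENOSF1 had the same highest and lowest line, at 30.6 in HL60 and 14.7 in SUDHL4, at levels far below those of TYMS. The part of this overlap in the TYMS counts was not tested. TK1, the salvage kinase for thymidine, was highest in THP1 under every scaling, at 276 against 136 to 201 elsewhere, and was not called.

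Among the fork and chromatin genes, CHAF1B, a subunit of the CAF-1 complex that places histones on new DNA, was at 21.3 normalised CPM in SUDHL4, against K562 at 56.9, HL60 at 40.7 and THP1 at 39.04. Its call of −1.04 in SUDHL4 was lost with housekeeping scaling. The largest CAF-1 subunit, CHAF1A, was instead highest in SUDHL4, at 129 against 91.9 to 116 elsewhere. CLSPN, which encodes the checkpoint mediator claspin, was at 49.4 normalised CPM in K562, against SUDHL4 at 44.4, THP1 at 31.3 and HL60 at 29.2, and THP1 and HL60 overlapped within counting error. Neither CHAF1A nor CLSPN reached a difference of 1.

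All 4 G1/S regulators were called in at least 1 line, beside 64.2% of all genes. None of the other role groups, of 8, had every gene called, but 4 genes are few to set beside that share. The paralogues cyclin E1 and cyclin E2, both activators of the kinase that starts S phase, did not share their lowest line. CCNE2 was at 63.1 normalised CPM in THP1, against SUDHL4 at 42.2, K562 at 22.9 and HL60 at 8.40, with calls of 1.59 in THP1 and −2.11 in HL60. CCNE1 was at 13.1 normalised CPM in SUDHL4, against HL60 at 32.9, THP1 at 32.04 and K562 at 27.5, a call of −1.18 in SUDHL4.

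For CCNE1, HL60 and THP1 overlapped within counting error, and under both other scalings its highest line was THP1, as for CCNE2. The CCNE2 share of the reads of both cyclins was 20.3% in HL60 (18.1 to 22.6), against 76.4% in SUDHL4 (74.2 to 78.5), 66.3% in THP1 and 45.4% in K562. Per kilobase, CCNE1 exceeded CCNE2 in HL60 (16.1 and 2.52 normalised CPM per kb), while CCNE2 exceeded CCNE1 in SUDHL4 (12.7 and 6.39). Exons of INTS8 on the opposite strand cover 37.05% of the CCNE2 exon bases. INTS8 was also lowest in HL60, at 44.9, against 123 in SUDHL4, 104 in K562 and 97.4 in THP1, and its part in the CCNE2 counts was not tested.

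E2F1 and E2F2, activating transcription factors of the S phase programme, were both highest in SUDHL4. E2F1 was at 100.2 normalised CPM in SUDHL4, against HL60 at 70.7, THP1 at 52.2 and K562 at 15.7, with calls of 1.34 in SUDHL4 and −2.13 in K562. E2F2 was at 72.6 normalised CPM in SUDHL4, against HL60 at 24.8, K562 at 21.3 and THP1 at 18.9, a call of 1.71, with K562 and THP1 overlapping within counting error. The calls of cyclins and E2F genes all held under every scaling. K562 was the lowest line for 5 of the 40 genes: E2F1, MCM2, MCM3, MCM5 and LIG1. It was the highest line for 11, among them CDC6, ORC1, MCM10 and CDC45. With 4 lines, no relation between E2F levels and those of other genes was computed.

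The remaining replication genes were read from 4 further lists holding 58 genes, of which 57 were measured at 5 normalised CPM or more in a pure line. In THP1, 4 were higher (7.02%, against 19.3% of all genes) and 10 lower (17.5%, against 18%). SUDHL4 had 9 higher (15.8%, against 15.6%) and 3 lower (5.26%, against 23.5%). K562 had 6 higher (10.5%, against 19.7%) and 3 lower (5.26%, against 19.3%), and HL60 had 4 higher (7.02%, against 14.3%) and 5 lower (8.77%, against 18.8%). THP1 was the lowest line for 27 of the 57 (47.4%, against 29.8% of all genes), and their median difference in THP1 was −0.45 log2 units, beside −0.16 over all genes. Their medians in HL60, K562 and SUDHL4 were 0.03, 0.14 and 0.06, beside 0.08, 0.07 and −0.10 over all genes. In HL60 the median of the 57 was thus not above that of all genes, unlike the median of the 40. The largest contrasts among licensing and firing genes were RECQL4, a helicase (88.5 in THP1 and 16.6 in SUDHL4), DBF4, the partner of the firing kinase CDC7 (202 in K562 and 39.3 in THP1), and MCM8 (81.5 in SUDHL4 and 20.9 in THP1).

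Among fork enzymes they were POLD4, the smallest subunit of polymerase delta (15.8 in SUDHL4 and 1.19 in HL60), the nuclease and helicase DNA2 (45.5 in K562 and 8.94 in THP1) and the single-strand binding protein RPA2 (164 in K562 and 55.02 in THP1). In nucleotide supply, SAMHD1, which degrades deoxynucleotides, was at 470.2 in THP1 and 271 in SUDHL4, against 40.4 in HL60 and 39.997 in K562. RRM2B, the reductase subunit used outside S phase, was at 116 in SUDHL4 and 11.01 in HL60, and the mitochondrial kinase TK2 was at 13.1 in THP1 and 1.05 in SUDHL4. Among regulators, the repressor E2F7 was at 19.2 in THP1 and 3.97 in HL60, the retinoblastoma gene RB1 at 238 in SUDHL4 and 58.3 in K562, and TFDP1, the dimer partner of E2F factors, at 565 in SUDHL4 and 151 in K562. SUDHL4 was the highest line for E2F1, E2F2, RB1 and TFDP1 at the deposited scaling, and K562 the lowest for E2F1, RB1 and TFDP1. RB1 and TFDP1 were named for their wide range and do not stand for their list. Of the 16 regulators measured in it, SUDHL4 was highest for 3, against 24.3% of all genes, and HL60 for 7, against 24.8%.

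The second comparison asks whether the genes behaved additively in the mixtures. The share of each line was estimated by non-negative least squares from 100 signature genes per line that included no replication gene, and each gene was predicted as the sum of its pure levels times the coefficients. Estimated RNA shares of HL60, K562, SUDHL4 and THP1 were 26.0%, 22.6%, 22.4% and 28.96% in mixture 1, 48.6%, 20.5%, 6.76% and 24.1% in mixture 2, and 25.5%, 39.3%, 0% and 35.2% in mixture 3. They were 10.6%, 0.0350%, 58.1% and 31.3% in mixture 4, 0.382%, 53.4%, 11.7% and 34.5% in mixture 5, and 7.76%, 52.9%, 11.6% and 27.7% in mixture 6. Observed levels lay close to the prediction for most replication genes: the median difference of the 40 genes, observed minus predicted in log2(normalised CPM + 1), was between −0.04 (mixture 5) and 0.05 (mixture 4), beside −0.02 and 0.05 over all genes in those mixtures.

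A gene was called off its prediction at a difference of 0.5 or more. Of the 40, 35 were off in no mixture and 5 in at least 1 (12.5%, against 22.6% of 11044 genes). In mixture 2, 1 gene was above (2.5%, against 6.94%) and 4 were below (10%, against 9.84%). In mixture 5, 1 was above (2.5%, against 5.07%) and 2 below (5%, against 6%). In mixtures 1, 3, 4 and 6 none was called, against 1.03%, 0.474%, 1.91% and 2.53% of all genes above and 0.563%, 0.178%, 1.03% and 2.45% below.

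CDT1 was the gene above its prediction. It was observed at 136, 158, 91.1, 65.2, 158 and 116 normalised CPM in mixtures 1 to 6, against predictions of 96.02, 109, 101, 77.7, 90.9 and 90.5. The observed level in mixtures 2 and 5 was above every pure line, with intervals apart, and THP1 was the highest pure line at 138. The differences from prediction were 0.53 in mixture 2 and 0.79 in mixture 5, and 0.49 in mixture 1. In mixture 3, CDT1 was −0.14 from its prediction.

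The genes below their predictions encode long transcripts. CLSPN was observed at 27.9, 19.9, 41.4, 32.97, 27.8 and 38.3 in mixtures 1 to 6, with −0.71 in mixture 2 and −0.56 in mixture 5, and 0.26 in mixture 3. POLA1 was observed at 76.5, 52.6, 83.4, 74.9, 56.3 and 64.3, with differences of −0.58 in mixture 2 and −0.51 in mixture 5. POLE, at 114, 82.6, 121, 80.3, 90.7 and 89.3, was off in mixture 2 (−0.62), as was RFC1, at 102, 69.9, 104, 127, 83.5 and 98.01 (−0.52). Their principal transcripts are 4169 (CLSPN), 5486 (POLA1), 7840 (POLE) and 4859 bases (RFC1).

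Few levels lay outside the range of the 4 pure lines by more than counting error. In mixture 2, CDT1 was above that range (2.5%, against 3.17% of the 11717 genes), and CLSPN, POLE and RFC1 were below it (7.5%, against 3.78%). In mixture 5, CDT1 was above (2.5%, against 1.5%) and RFC1 below (2.5%, against 2.17%), and in mixture 4 POLE was below (2.5%, against 0.674%) and none above, against 1.2%. None was outside the range in mixtures 1, 3 and 6, against 0.171%, 0.469% and 1.18% of all genes below it and 0.102%, 0.0512% and 0.717% above it.

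Transcript length and base content moved with these departures over all genes. In mixture 2 the median departure was −0.39 for the 8 replication genes of 4000 bases or more and 0.20 for the 9 under 2000 bases, beside −0.27 and 0.30 for all genes of those lengths. In mixture 5 the 8 long and 9 short replication genes had medians of −0.30 and 0.00, beside −0.21 and 0.19. Across genes of 1 library, which are not independent, Spearman's rho of departure with length was −0.64 over 10119 genes in mixture 2 and −0.55 over 10386 in mixture 5, but 0.38 over 10018 in mixture 3. For GC content, rho was 0.38 in mixture 2, 0.48 in mixture 5 and −0.46 in mixture 3, and the CDT1 transcript, at 64.9% GC, exceeds 96.4% of genes in this measure. Their part in the departures was not tested.

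**Figure D3:**
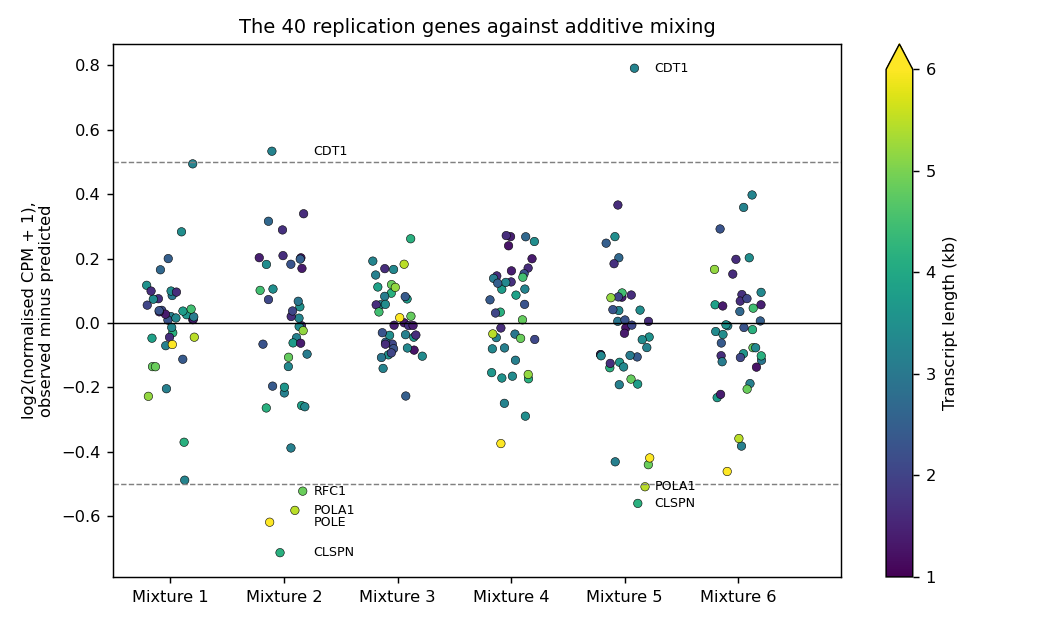
Observed minus predicted log2(normalised CPM + 1) of the 40 genes in each mixture, coloured by transcript length in kilobases; dashed lines mark 0.5 in either direction. Only mixtures 2 and 5 have genes outside the lines, with CDT1 at 0.53 and 0.79 above and CLSPN at −0.71 and −0.56 below.

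The observed levels of the other genes called in a line can be set beside the estimated shares. CDC45, high in K562, was at 132, 153, 152, 56.7, 177 and 171 in mixtures 1 to 6, lowest in mixture 4, where K562 was nearly missing, and within 0.11 log2 units of its prediction in all 6. GMNN was at 77.01, 91.9, 78.2, 58.5, 95.6 and 91.2, again lowest in mixture 4. MCM10, also highest in K562, was at 31.2, 29.8, 40.9, 29.7, 32.8 and 39.4, and in mixture 5, with 53.4% K562, it was −0.43 log2 units from its prediction. GINS4 was at 40.9, 29.9, 42.3, 51.6, 43.7 and 46.1. In the CDT1 and GMNN pair, GMNN made up 36.2%, 36.8%, 46.2%, 47.3%, 37.7% and 43.96% of reads in mixtures 1 to 6, against predictions of 43.9%, 42.3%, 45.2%, 38.9%, 51.5% and 52.6%. Its share was thus below prediction in mixtures 1, 2, 5 and 6 and above it in mixtures 3 and 4, in mixture 3 within the counting interval.

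RFC3, high in SUDHL4, was at 67.9, 58.9, 52.6, 104, 50.8 and 55.6, highest in mixture 4, where SUDHL4 was estimated at 58.1%. E2F1 at 66.1, 62.5, 32.8, 86.3, 44.6 and 38.997 and E2F2 at 27.02, 24.3, 20.96, 43.7, 27.3 and 29.5 were likewise highest in mixture 4 and lowest in mixture 3, where SUDHL4 was estimated at 0%. CCNE2, lowest in HL60, was at 33.5, 21.2, 34.03, 47.6, 34.5 and 32.4, lowest in mixture 2, which had the most HL60. CCNE1 was at 27.1, 29.6, 25.8, 20.8, 28.3 and 28.3, lowest in mixture 4.

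PCNA was at 244, 315, 211, 249, 181 and 216 and TYMS at 414, 555, 415, 329, 355 and 378, both highest in mixture 2. MCM2 was at 372, 367, 330.1, 306, 255 and 269.5 and MCM5 at 321, 357, 247, 252, 206 and 226, both lowest in mixture 5, which had almost no HL60. MCM2 was highest in mixture 1 and MCM5 in mixture 2, at 372 and 357. POLD1 was at 115, 122, 89.7, 63.2, 92.3 and 94.2, PRIM1 at 71.7, 74.3, 78.3, 55.6, 77.7 and 72.3 and CHAF1B at 39.3, 43.4, 43.2, 30.9, 48.4 and 46.8. These 3 were all lowest in mixture 4, where SUDHL4, their lowest line, was most of the RNA. RRM2, at 342, 385, 277, 398, 271 and 279, was highest in mixture 4 and was above its prediction there by 0.25 log2 units, under the limit of 0.5.

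**Figure D4:**
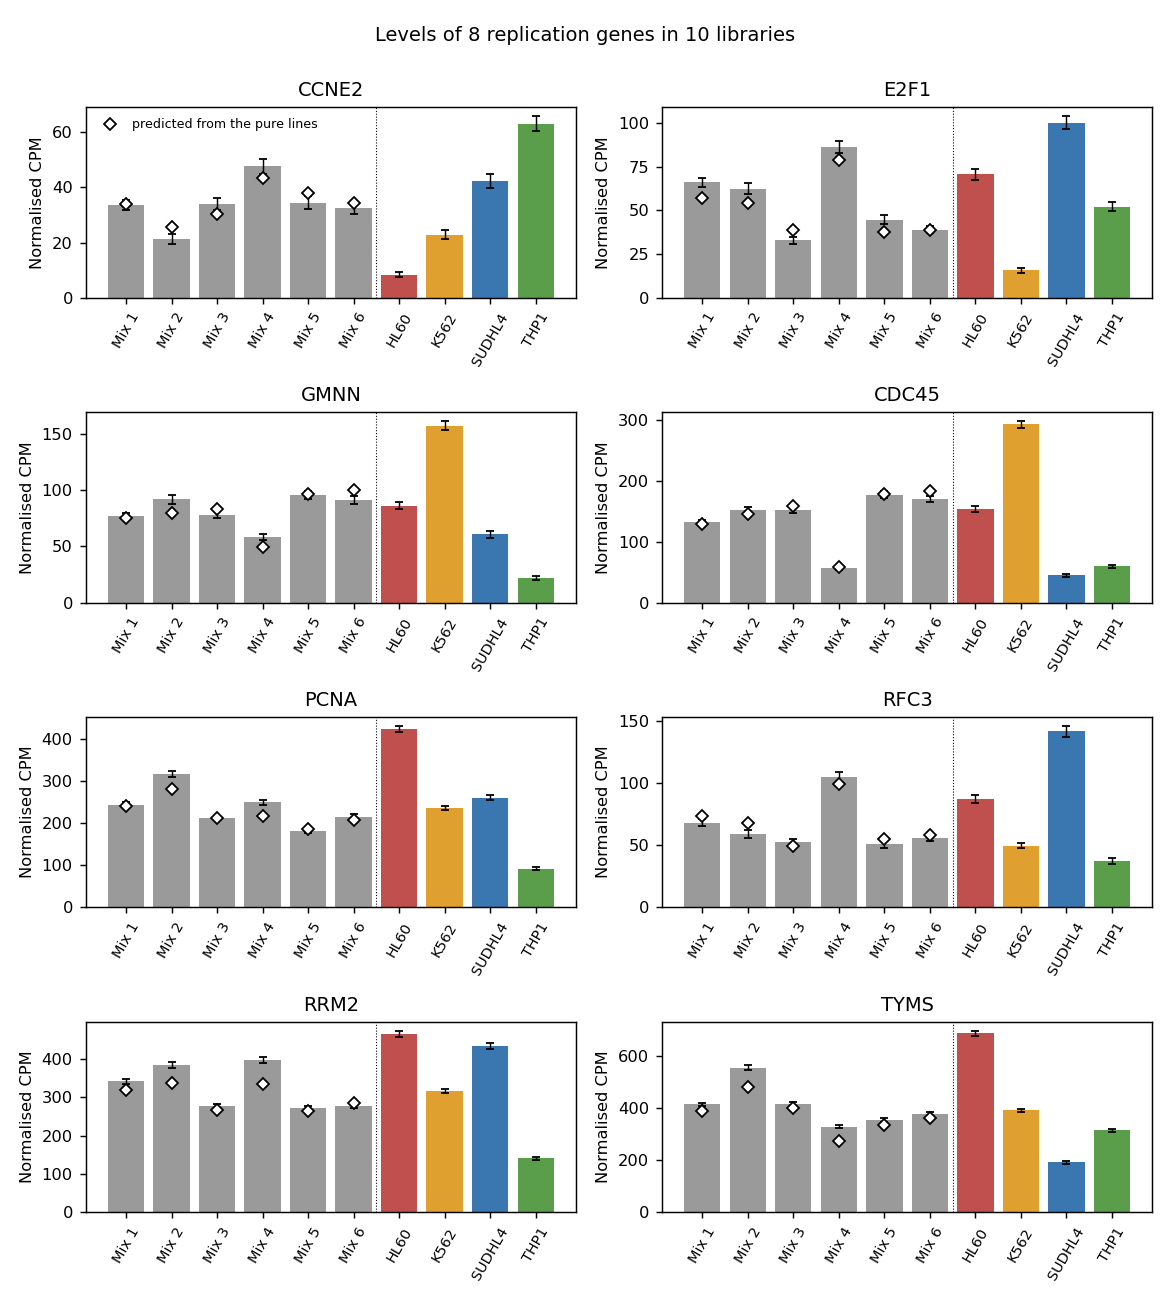
Normalised CPM of 8 replication genes in the 6 mixtures (grey) and the 4 pure lines (colours), 1 library per bar, with exact 95% Poisson intervals of the counts; white diamonds are the levels predicted from the pure lines. CCNE2 ranges from 8.40 in HL60 to 63.1 in THP1, and its mixtures lie between.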

How the data were processed

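RNA from 10 libraries was sequenced in bulk, 1 library per group. The deposited table holds, per the submitters' own name for it, normalised CPM, treated here as a signal: the authors' processing left each value above 0 equal to a whole number of reads plus 0.5 times 1 step per library, within a tolerance of 0.01, and 0 reads listed as 0. Per the submitters' processing notes, HISAT2, featureCounts and the build hg19 were used; the annotation, the strand setting and the rescaling method are not given in those notes as used here. Reads were recovered from the steps and gave exact Poisson and Wilson 95% intervals, which cover counting error only. Values were compared as log2(value + 1), so differences of low genes are understated, and genes needed 5 normalised CPM in a pure line. Lines were compared with the mean of the other 3 without a test. Mixtures were fitted by non-negative least squares. This step was checked on simulated mixtures that were additive apart from a set of changed genes and had counting error only. They held no departures by transcript length or GC content, so that check does not cover those seen here. Transcript lengths, positions and exon overlaps came from GENCODE 29 (GRCh38), never converted to hg19.

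The genes and lists were chosen with earlier results of these data known. Values in every library are given for genes called in a line, the 2 genes per role group with the widest range, and cyclin E1, cyclin E2, E2F1 and E2F2; CLSPN, POLA1, POLE and RFC1 were added for their mixture values. From each other list the 3 genes with the widest range are named. UHRF1 was not matched by symbol. Protein sequences were not used here, so a planned search for a PCNA-binding motif was not run. The unit was planned as CPM, and no count model was fitted because no group has a replicate.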

Additional observations from a re-analysis of the deposited data

How the results depend on the processing

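No called difference or departure of a single gene changed sign under an alternative. Smaller differences did: in HL60, 30 of the 40 genes were above the mean of the other lines as deposited. This count was 27 with total-read and 25 with housekeeping scaling, and in THP1 it was 11, 13 and 15 in the same order. The line that was highest for the most genes also changed. So did the sign of 4 medians of the 40 genes: that of SUDHL4 and those of mixtures 1, 2 and 4. Under total-read scaling, HL60 was the highest line for 7 genes and K562 for 15, 2 were called higher there, and the medians were 0.2036 in HL60 and 0.1938 in K562. Under housekeeping scaling, HL60 was highest for 9 genes and K562 for 13, 2 were called higher in HL60 and 2 in THP1, 3 were called lower in THP1, and the medians were 0.1298 in HL60, 0.01962 in SUDHL4 and −0.08903 in THP1. With differences of 0.58 called, 11 genes were higher in HL60, 7 in K562, 8 in SUDHL4 and 4 in THP1, and 6 were lower in K562, 10 in SUDHL4 and 12 in THP1. Against the highest or lowest other line, which gives no median, 0 were higher in HL60, K562 and THP1 and 1 in SUDHL4, and 1 was lower in each of HL60, K562 and SUDHL4 and 3 in THP1. Shares of all genes were not computed under these alternatives. The counts therefore do not show whether replication genes were called or highest more often than other genes. In mixture 1, 1 gene was called with 50 signature genes per line, with coefficients summing to 1 or with a pseudocount of 0.1. The median departure in mixture 2 was −0.0101 as reported, 0.0153 with a pseudocount of 0.1 and 0.05958 with 50 signature genes, and with coefficients summing to 1 the medians were −0.03009, −0.07591, −0.1435 and −0.006421 in mixtures 1, 2, 3 and 4. With every gene used for the fit, that of mixture 4 was −0.01342, against 0.04539 as reported. Without MCM7, the gene with the most reads, the share of reads was 0.5328%, 0.5209%, 0.5441%, 0.488%, 0.4892% and 0.507% in mixtures 1 to 6, and 0.6046% in HL60, 0.5341% in K562, 0.4924% in SUDHL4 and 0.4746% in THP1. A further 159 summary values and 131 values of single genes stayed within their limits, and 65 of single genes moved. The smallest count of a gene was 250 reads; the spread between replicates and the library kits were not tested. No paired analysis was possible because each group holds 1 library.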

Other observations

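A contrast list of 20 mitosis genes was ordered differently from the replication genes. Their median difference was 0.64 log2 units in SUDHL4, 0.50 in K562, −0.22 in HL60 and −0.84 in THP1, beside −0.10, 0.07, 0.08 and −0.16 over all genes. HL60 was the highest line for none of the 20 at the deposited scaling, against 24.8% of all genes and 16 of the 40 replication genes. That count of replication genes was 7 with total-read and 9 with housekeeping scaling, and the mitosis genes are given at the deposited scaling only. K562 was the highest line for 10 of the 20, against 30.2% of all genes, and SUDHL4 for 9, against 24.3%. KIF11, a spindle motor, stood at 256 normalised CPM in SUDHL4, against K562 at 156, HL60 at 152 and THP1 at 43.6. AURKB, a mitotic kinase, stood at 108 in SUDHL4, against K562 at 54.6, HL60 at 44.8 and THP1 at 18.9.

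UBE2C, which encodes a ubiquitin-conjugating enzyme of the anaphase-promoting complex, was nearly missing from the K562 library, at 0.0988 normalised CPM, against SUDHL4 at 97.8, HL60 at 83.6 and THP1 at 33.05. UBE2C was at 57.9, 71.1, 29.8, 89.2, 31.1 and 33.3 in mixtures 1 to 6. In mixtures 5 and 6, K562 was estimated at 53.4% and 52.9% of the RNA. The other lines supplied RNA there too, and no prediction for this gene is given.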
